A study of Mus musculus with 24 samples.

Results

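The microRNA-related genes Mirlet7b, Mirlet7c-2, Mir21, Mir143, Mir145, Mir199a-2, Mir214 and Dnm3os were examined at 4 loci in ChIP-seq peak lists of mouse fibroblasts with and without Prrx1. They are 8 of the 37310 genes of the annotation used here, which holds 1577 microRNA genes. Each gene was taken with 20 kb on either side, and the let-7b locus was extended over the interval chr15:85460000-85545000. The let-7b members were selected on measured values of these lists, since the interval holds the top-ranked cluster of acetylated histone H3 lysine 27 (H3K27ac) in WT cancer-associated fibroblasts and in WT wound-healing fibroblasts. Its H3K27ac rank and summit counts, and how they differ between lists, are therefore a description, with no test. The other members were also chosen with earlier results of these data known. The 24 samples covered 3 cultured fibroblast types. Mouse embryonic fibroblasts (MEF) were C57BL/6, from embryonic days 10 to 13. Cancer-associated fibroblasts (MMTV-CAF) came from MMTV-PyMT mammary tumours of FVB/N mice. Wound-healing fibroblasts came from dorsal skin wounds of C57BL/6 mice, 10 days after wounding. All, controls included, carried the papillomavirus genes E6 and E7 for immortalisation. WT cells were compared with SG cells, in which Prrx1 had been deleted with a guide RNA and Cas9, the control being a non-targeting guide, and in MEF also with KI cells. KI is read here as the Prrx1 mutant mouse with lacZ inserted into the homeodomain, which the labels do not spell out. Peak lists were used for 17 samples: H3K27ac and trimethylated lysine 4 (H3K4me3) in all 7 cell populations and PRRX1 in the 3 WT populations. Each group has 1 library, so no p-value is given, and strain and fibroblast type cannot be told apart between MMTV-CAF and the others.

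MicroRNAs are short RNAs that guide Argonaute proteins to messenger RNAs by pairing through a seed near their 5′ end. Their genes are transcribed as long primary transcripts, so the promoter can lie far upstream of the hairpin, and H3K4me3 marks such promoters while H3K27ac marks active promoters and enhancers. The let-7 family restrains growth and rises with differentiation, miR-21 is raised in fibrosis and in tumour stroma, miR-143 and miR-145 are typical of smooth muscle and mesenchyme, and miR-199a and miR-214 are cut from the long transcript Dnm3os, which is needed for skeletal development. PRRX1 is a paired-related homeodomain factor of limb and craniofacial mesenchyme.

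The mature products of the members show which of them can share targets. They were taken from RefSeq (GRCm38.p6) and are written with the seed, bases 2 to 8, in capitals.
let-7b-5p: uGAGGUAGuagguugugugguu
let-7c-5p: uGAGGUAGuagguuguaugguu
miR-21a-5p: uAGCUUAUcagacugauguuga
miR-199a-5p: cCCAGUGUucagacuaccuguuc
miR-199a-3p: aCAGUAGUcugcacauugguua
miR-214-3p: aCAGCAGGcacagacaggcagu
The let-7b and let-7c products have the same seed and differ at 1 of 22 positions, G17A, counted from the 5′ end with the let-7b base first. That seed occurs in 11 of the 1679 mature microRNAs of the table. The seeds of miR-199a-3p, miR-214-3p and miR-21a-5p occur in 2 each, and that of miR-199a-5p in 1. Of the members printed, the let-7 pair alone shares a seed.

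All coordinates that follow are mm9. Mirlet7c-2 (ENSMUSG00000065608.1, chr15:85537033-85537127, plus strand) and Mirlet7b (ENSMUSG00000065564.1, chr15:85537749-85537833, plus strand) start 716 bp apart in an intergenic stretch of GENCODE vM1. Wnt7b and the lincRNA AU022754 lie upstream of them and Ppara lies 27.6 kb downstream of Mirlet7b. RefSeq on GRCm38.p6 also places the non-coding genes D130051D11Rik and Lncppara between AU022754 and the let-7 pair. Mir21 (ENSMUSG00000065455.1, chr11:86397569-86397660, minus strand) lies in the annotated UTR at the downstream end of Vmp1, a gene of autophagy. Mir143 (ENSMUSG00000065445.1, chr18:61808850-61808912) and Mir145 (ENSMUSG00000065592.1, chr18:61807470-61807557) lie on the minus strand, downstream of the lincRNA Gm16908, whose start is 16.3 kb upstream of Mir143. Mir199a-2 (ENSMUSG00000070126.1, chr1:164147945-164148054) and Mir214 (ENSMUSG00000065516.1, chr1:164153499-164153608) are inside exons of Dnm3os (ENSMUSG00000078190.4, chr1:164147754-164155681, plus strand), which runs antisense within an intron of Dnm3. The windows examined were 97.8 kb at let-7b, 40.1 kb at Mir21, 41.4 kb at Mir143/Mir145 and 47.9 kb at Dnm3os. Windows of members at 1 locus overlap almost entirely, so the members are 4 independent places and not 8.

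The H3K27ac lists held 29325 to 61603 summits and the H3K4me3 lists 13125 to 29166 regions. The MEF KI lists were weaker than those of MEF WT, with a median −log10 p of 11.9 against 18.5 for H3K27ac and 9.93 against 28.6 for H3K4me3. The fibroblast markers Col1a1, Col1a2, Col3a1, Vim, Pdgfrb, Thy1, Fn1 and Postn all had H3K4me3 within 2 kb of their start in each WT list (8 of 8). In WT MEF, MMTV-CAF and wound-healing cells H3K4me3 lay there at 1, 1 and 3 of 6 epithelial markers, 0, 1 and 1 of 4 leukocyte markers and 1 of 3 endothelial markers each. Summed over the WT lists, H3K27ac summits within 20 kb numbered 14 each at the keratin genes Krt8 and Krt18, 27 at the macrophage marker Cd68, 10 at the endothelial receptor Kdr, and 0 at Epcam, Krt5, Ptprc, Cd3e and Pecam1. The part of other cells in the values that follow was not tested. Each H3K27ac peak has 1 summit in these lists and no width. A lower number of summits in a stretch can therefore mean fewer acetylated sites or neighbouring peaks merged into 1, and the lists cannot tell these apart.

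By summed −log10 p the let-7b locus carried one of the top-ranked H3K27ac clusters of the WT lists, and nearly all of it lay upstream of the microRNA genes. Per length it was not the densest of the 4 loci in most lists, with 3.27 summits per 10 kb in WT wound-healing fibroblasts against 5.07 at Mir143/Mir145. The window held 20 summits in WT MEF, with 14 in KI and 19 in SG. MMTV-CAF had 37 summits with Prrx1 and 33 without it, and wound-healing fibroblasts had 32 and 15. The WT lists of the latter types, which selected the interval, were above all 3 MEF lists. When summits closer than about 13 kb, the default of the ROSE procedure, were stitched and clusters ranked by summed −log10 p, the let-7b cluster was rank 1 of 18506 for WT MMTV-CAF and rank 1 of 13901 for WT wound-healing fibroblasts, the values that selected it. In MEF WT it was rank 3 of 18313, spanning 54.8 kb from 85464741 to 85519511. It spanned 78.5 kb in WT MMTV-CAF but 70.8 kb in WT wound-healing fibroblasts, reaching to 85543266 and 85535518, so that the additional acetylation lay on the side of the microRNA genes. Without Prrx1 the rank was 88 of 13518 (MEF KI), 6 of 17687 (MEF SG), 5 of 19061 (MMTV-CAF SG) and 81 of 18052 (wound-healing SG). The wound-healing SG cluster ended at a gap longer than the stitching distance and held 9 of the 15 summits. With stitching within 5 kb its rank was 1864, and the MMTV-CAF order turned, to rank 3 with and rank 1 without Prrx1.

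**Figure D1:**
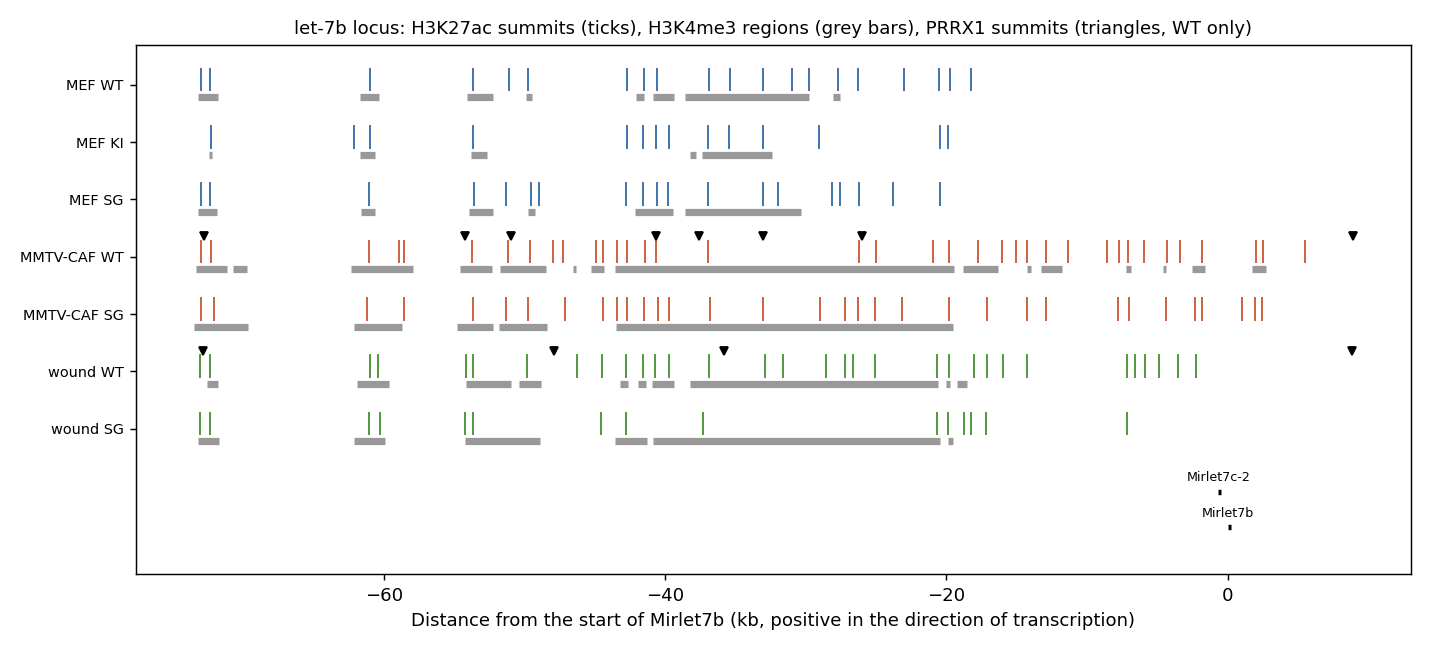
Positions of H3K27ac summits (coloured ticks), H3K4me3 regions (grey bars) and PRRX1 summits (black triangles, WT lists only) along the let-7b window, in kb from the start of Mirlet7b, 1 row per cell population. The 3 MEF rows have no H3K27ac tick in the last 18 kb before Mirlet7b, whereas both MMTV-CAF rows reach past it, and the wound-healing SG row has its longest gap inside a wide H3K4me3 region.

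Close to the let-7 hairpins the types differed more than over the whole interval. Within 20 kb of the start of Mirlet7b WT, KI and SG MEF had 2, 1 and 0 summits. MMTV-CAF had 17 with and 12 without Prrx1, and wound-healing fibroblasts had 11 and 5. The counts of the 3 MEF lists and the 4 others did not overlap, which describes a locus selected on H3K27ac in WT lists of those other types. The 3 MEF lists lay below the 4 others at 2.11% of protein-coding gene windows. The MEF WT count exceeded that of 55.4% of protein-coding gene starts in the same list, and the MMTV-CAF WT count that of 99.9%. By contrast, 5 sites farther upstream had a summit in all 7 lists. They lay at 85465390 to 85465714, 85476537 to 85476787, 85483508 to 85484177, 85494947 to 85495070 and 85500432 to 85500940. The last of them held the strongest summit of the window in 6 of 7 lists, with a −log10 p in WT cells of 101 (MEF), 192 (MMTV-CAF) and 100.4 (wound-healing).

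The widest H3K4me3 region at the let-7b locus lay about 20 to 40 kb before the hairpins. The widest region of WT MEF measured 8846 bp, that of KI 4948 bp and that of SG 8246 bp. MMTV-CAF had 24082 bp with and 23918 bp without Prrx1, and wound-healing fibroblasts 17661 and 20443 bp. In each MMTV-CAF list it was wider than 99.9% of regions. In WT MEF its edges were 38.6 and 29.7 kb before Mirlet7b. WT MMTV-CAF had them at 43.5 and 19.4 kb, and WT wound-healing fibroblasts at 38.2 and 20.6 kb, so the region had one part in common and extended toward the hairpins in the latter types. Bases covered by any H3K4me3 region rose from 16504 in MEF WT to 29148 in wound-healing WT and 45171 in MMTV-CAF WT. No H3K4me3 region covered the start of Mirlet7b or Mirlet7c-2 in any of the 7 lists. Within 3 kb of Mirlet7b, WT MMTV-CAF alone had small regions, of 874 bp ending 1652 bp before its start and of 1010 bp beginning 1711 bp after it. The widest region had 53.0% GC in MEF WT, near the median of 51.3% over the 987 regions above 4 kb in that list.

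Of all members, Mir21 had the largest difference in the number of H3K27ac summits between WT and deleted MEF. Fewer summits can also mean merged peaks, as stated above. Its window held 3 H3K27ac summits in WT MEF, with 18 in KI and 12 in SG. MMTV-CAF had 8 with and 11 without Prrx1, against 19 and 9 for wound-healing fibroblasts. Counts were higher than WT in both deleted MEF lists and lower than WT in deleted wound-healing fibroblasts. The 3 summits of MEF WT lay at 86384705, 86400004 and 86401562, and the last had a −log10 p of 103, above 99.8% of the list. The stretch of 15.3 kb between the first and second had no summit in MEF WT, whereas the longest empty stretch was 4.30 kb in KI and 7.27 kb in SG. The strongest summit of the window had a −log10 p of 63.2 in KI and 144 in SG. The Mir21 cluster, which runs into Vmp1, took rank 665 in WT MEF but 1 in KI and 5 in SG. Its rank with and without Prrx1 was 13 and 6 for MMTV-CAF, against 6 and 3 for wound-healing cells. In MEF WT the gap exceeded the stitching distance. H3K4me3 did not follow the summit counts: its widest region, which covered the hairpin in all 7 lists, measured 5143 bp in WT MEF, with 4362 bp in KI and 5370 bp in SG. With and without Prrx1 it measured 8057 and 10281 bp for MMTV-CAF, against 5393 and 5271 bp in wound-healing cells.

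At Mir143/Mir145 the widest H3K4me3 region lay at the start of the upstream lincRNA Gm16908, which RefSeq lists as a synonym of Carmn, the host gene of Mir143, while H3K27ac summits were spread over most of the window. WT, KI and SG MEF had 11, 8 and 11 H3K27ac summits in the window, both MMTV-CAF lists had 9, and wound-healing fibroblasts had 21 with and 11 without Prrx1. WT wound-healing fibroblasts were above the other 6 lists. A summit at 61824765 to 61824895, within the first 500 bp of Gm16908, occurred in 6 of 7 lists and was missing in wound-healing SG, where the nearest summit was at 61825831. The widest H3K4me3 region of WT, KI and SG MEF measured 7605, 2883 and 5039 bp. With and without Prrx1 it measured 11331 and 9354 bp for MMTV-CAF, against 6090 and 8315 bp in wound-healing cells. It was narrower than WT in the 3 deleted lists of MEF and MMTV-CAF, and wider than WT in wound-healing SG. The region held few CpG: the ratio of observed to expected CpG was 0.208 in MEF WT against a median of 0.574 over regions above 4 kb.

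The number of summits at the Dnm3os locus was similar across MEF and equal in both MMTV-CAF lists. WT, KI and SG MEF had 9, 9 and 10 H3K27ac summits there, both MMTV-CAF lists had 15, and wound-healing fibroblasts had 12 with and 8 without Prrx1. MMTV-CAF were above the other types. Of its 17 acetylated sites, 4 had a summit in all 7 lists, and the strongest, at 164148020 to 164148178, overlapped the end of Mir199a-2. Its −log10 p in WT, KI and SG MEF was 112, 38.0 and 82.6. With and without Prrx1 it was 94.3 and 101 for MMTV-CAF, against 52.9 and 85.6 in wound-healing cells. The widest H3K4me3 region began near the start of Dnm3os and measured 6575, 5267 and 5573 bp in WT, KI and SG MEF. With and without Prrx1 it measured 8161 and 8183 bp for MMTV-CAF, against 4024 and 5853 bp in wound-healing cells. The wound-healing WT region only just passed 4 kb. In MMTV-CAF it extended over Mir214 as well. This region was AT-rich, with 38.5% GC in MEF WT, and 0.304% of the regions above 4 kb in that list had less.

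**Figure D2:**
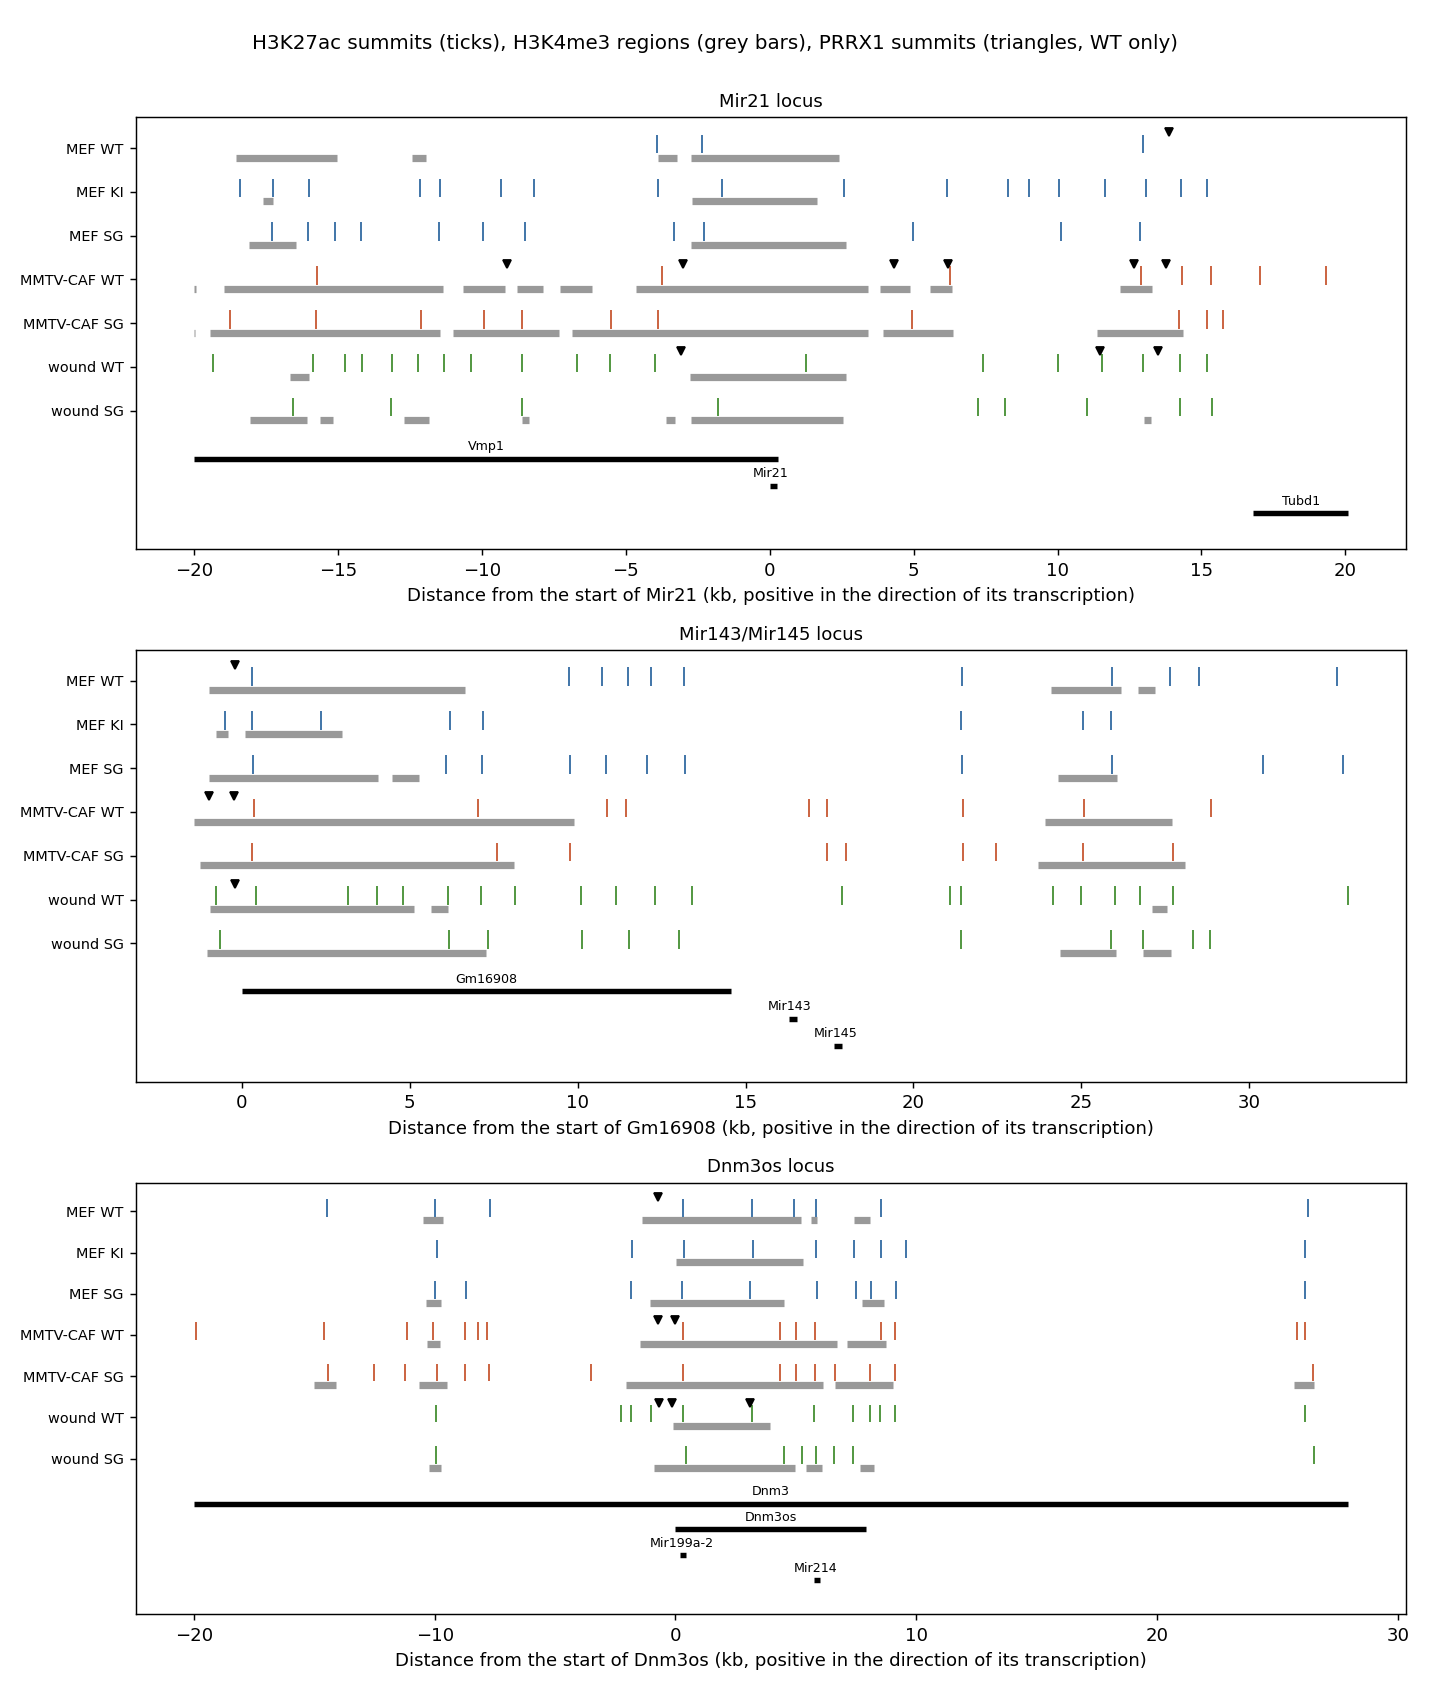
H3K27ac summits (coloured ticks), H3K4me3 regions (grey bars) and PRRX1 summits (black triangles, WT lists only) at the other 3 loci, in kb from the start of Mir21, Gm16908 and Dnm3os, 1 row per cell population. MEF WT has 3 H3K27ac ticks at Mir21 against 18 in KI, and PRRX1 triangles of all 3 types line up just before the starts of Gm16908 and Dnm3os.

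Wide H3K4me3 was common at these loci. A region above 4 kb lay in the window at all 4 loci in 6 of 7 lists, and at 3 in MEF KI, where the one at Mir143/Mir145 fell short. Since windows of this length hold several genes, gene starts give the comparison. The start of 3 of 8 members lay under such a region in MEF WT, against 4.59% of 22367 protein-coding gene starts. It was 2 of 8 in MEF KI against 1.31% and 3 of 8 in MEF SG against 3.26%. It was 4 of 8 in MMTV-CAF WT against 14.1% and 4 of 8 in SG against 11.9%. It was 3 of 8 in wound-healing WT against 4.38% and 3 of 8 in SG against 7.9%. The starts covered were those of Mir21, Mir199a-2 and Dnm3os, with Mir214 in MMTV-CAF. In MEF KI the region began 10 bp downstream of the Dnm3os start. Mir21 is a single place and the others share 1 region, so these counts stand for 2 places.

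**Figure D3:**
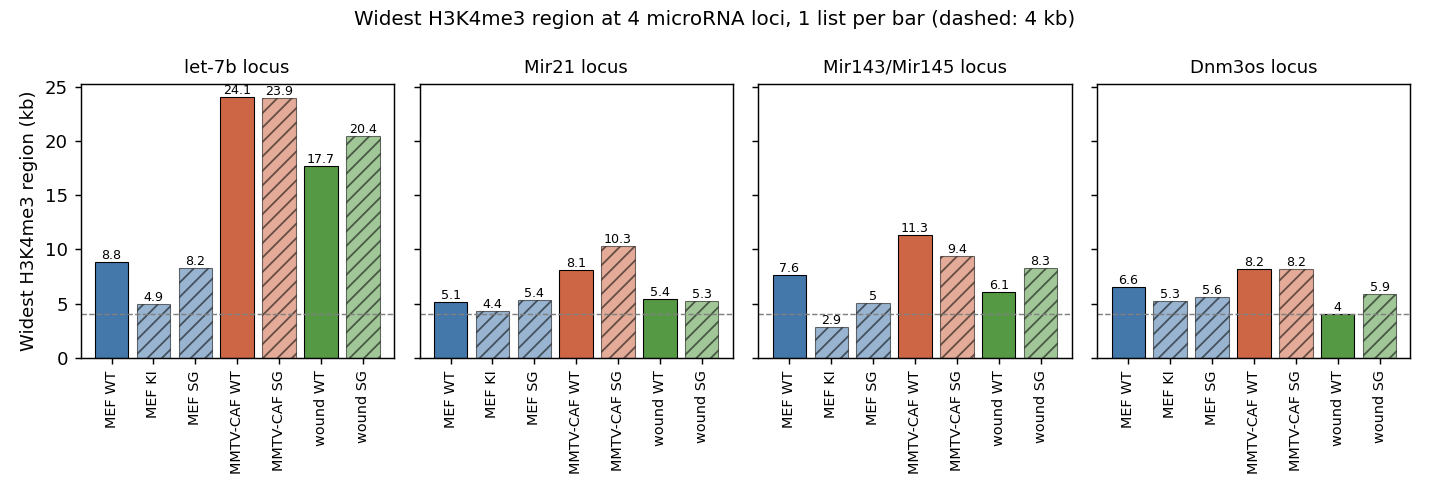
Width in kb of the widest H3K4me3 region at each locus, 1 bar per list, with deleted cells hatched and a dashed line at 4 kb. At let-7b the MMTV-CAF bars reach 24.1 and 23.9 kb, whereas MEF KI at Mir143/Mir145, at 2.9 kb, is the only bar below the line.

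The question of the deletion was whether acetylation at these loci differed without Prrx1. A window was called where the summit counts of deleted and WT lists differed at least 1.5 times with at least 4 summits in the higher list, over the 8 members and the let-7b interval. In MEF KI, 1 of 9 windows was higher, that of Mir21, and 0 were lower, against 2.41% and 9.31% of protein-coding gene windows of 40 kb. Of the 4500 gene windows with at least 4 summits in either list, 12% were higher and 46.3% lower. In MEF the windows of Mirlet7b and Mirlet7c-2 had fewer summits and could not be called. In MEF SG the Mir21 window was higher and 0 were lower, against 3.99% and 3.94%. In MMTV-CAF 0 were higher and 0 lower in SG, against 9.1% and 4.02%. For MEF SG and MMTV-CAF the shares among gene windows that could be called were not computed. Among summits of −log10 p 10 or more, MEF KI had 1 window higher and 3 lower, MEF SG 3 higher and MMTV-CAF SG 2 lower, the latter those of Mirlet7b and Mirlet7c-2. With lists of equal size MEF KI had 4 higher, Mir143 and Mir145 among them, which were lower at the −log10 p threshold. MEF SG then had 3 higher and MMTV-CAF SG 2 lower. No share of gene windows is given for the −log10 p threshold or for lists of equal size, so those counts stand without a background. In wound-healing fibroblasts all 9 windows were lower in SG and 0 were higher, against 3.99% lower and 6.73% higher among gene windows. Of the 4964 gene windows with at least 4 summits in either list, which alone can be called, 18% were lower and 30.3% higher. The 3 windows at let-7b were selected on H3K27ac of the WT list, so their lower counts are a description. At the other loci 6 of 6 were lower, and these stand for 3 places. The difference at Mir21 depends on the window: its whole cluster, which runs into Vmp1, held 33 summits in WT and 29 in SG. The clusters at Mir143/Mir145 held 21 and 13, and those at Dnm3os 11 and 7. Among summits of −log10 p 10 or more 8 of 9 windows were lower, without that of Dnm3os. The wound-healing SG list as a whole was the larger one, with 43058 summits against 33465 in WT. The loci together held 84 summits in wound-healing WT and 43 in SG, whereas they held 69 and 68 in MMTV-CAF, and 43, 49 and 52 in MEF WT, KI and SG. The median −log10 p of the summits at the loci was 23.6 in wound-healing SG against 16.3 in WT. It was also higher in SG than in WT for MMTV-CAF, at 28.7 against 17.8, and MEF, at 32.0 against 28.9, and it was 13.4 in MEF KI. The medians of the whole lists were also higher in SG than in WT, at 16.3 against 15.2, 17.8 against 16.3 and 21.2 against 18.5 in the same order. The longest gap of wound-healing SG at let-7b, 16.7 kb from 85500432 to 85517102, lay inside its H3K4me3 region of 20443 bp, and whether the gap was unacetylated cannot be told from summits.

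**Figure D4:**
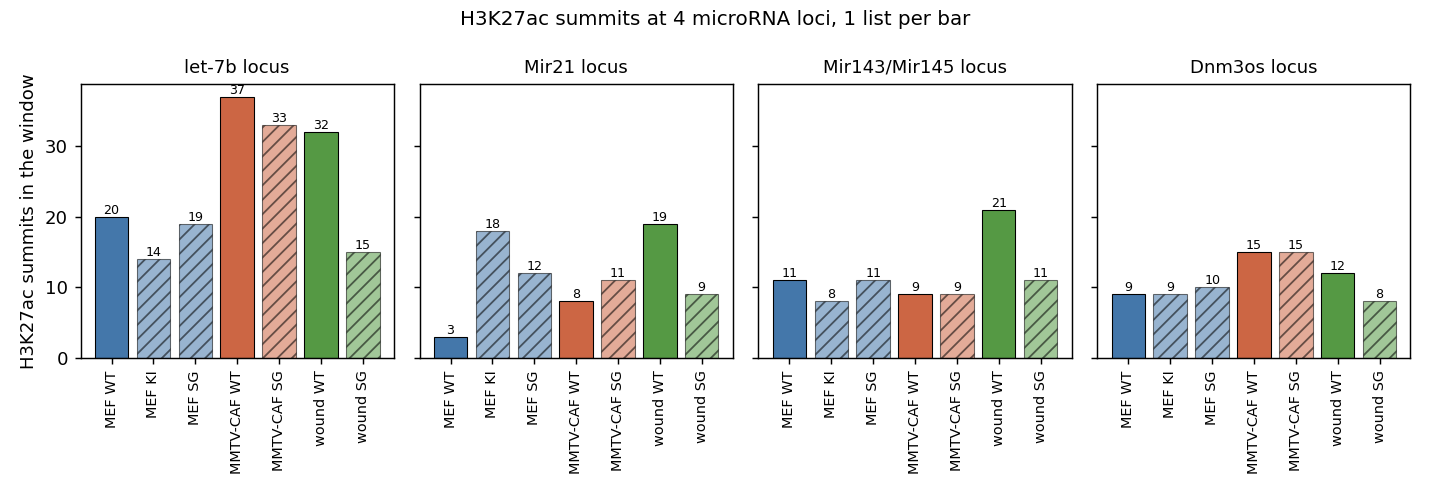
Number of H3K27ac summits in each window, 1 bar per list, with deleted cells hatched. All 4 loci have fewer summits in wound-healing SG than in WT, and Mir21 has more in both deleted MEF lists than in MEF WT.

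Positions were compared next, as the share of WT summits at the loci with a summit within 500 bp in the deleted list, with Wilson 95% intervals that cover counting error over summits only. In MEF KI 22 of 43 were retained, 51.2% (36.8 to 65.4), against 44.3% of all WT summits. In MEF SG 30 of 43 were retained, 69.8% (54.9 to 81.4), against 68.2%. In MMTV-CAF SG 47 of 69 were retained, 68.1% (56.4 to 77.9), against 63.9%. In wound-healing SG 34 of 84 were retained, 40.5% (30.6 to 51.2), against 67.7%. The wound-healing share was below that of the whole list, but 43 summits in SG against 84 in WT limit how high it could be. It includes let-7b, which was selected on the WT list, and without that locus 20 of 52 were retained, 38.5% (26.5 to 52.0). Retention at each locus was 14 of 32 at let-7b, 5 of 19 at Mir21, 10 of 21 at Mir143/Mir145 and 5 of 12 at Dnm3os. Read from the deleted side, 34 of 43 wound-healing SG summits at the loci had a WT summit within 500 bp, 79.1% (64.8 to 88.6), against 51.6% of that list. It was 22 of 49 in MEF KI, 44.9% against 69.5%, 31 of 52 in MEF SG, 59.6% against 70%, and 46 of 68 in MMTV-CAF SG, 67.6% against 56.4%. Without let-7b it was 20 of 28 in wound-healing SG, 71.4% (52.9 to 84.7). At Dnm3os in MMTV-CAF, 13 of 15 WT summits were retained, the highest share of any locus and comparison. Over all 7 lists the windows held 125 acetylated sites, of which 10 had a summit in every list, 8% against 10.6% of all sites. There were 25 sites in the 3 WT lists alone, 20% against 16.1% of all sites, and 20 in the 4 deleted lists alone, 16% against 31.9%. Those WT lists include the ones that selected let-7b, which held 12 of the 25.

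**Figure D5:**
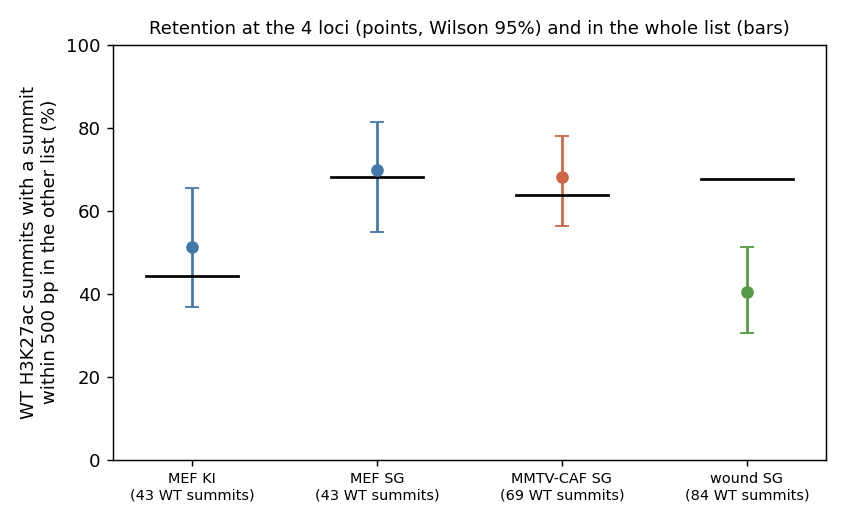
Percentage of WT H3K27ac summits at the 4 loci with a summit within 500 bp in the deleted list (points, Wilson 95% intervals) beside the percentage over the whole WT list (horizontal bars). The point for wound-healing SG, 40.5%, lies below its bar at 67.7%, and the other 3 intervals include theirs.

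PRRX1 summits lay over the loci in WT cells of all 3 types. MEF had 3, MMTV-CAF had 18 and wound-healing fibroblasts had 11. With a −log10 p of 10 or more there were 2, 4 and 3. The let-7b window held 0, 8 and 4 of them, Mir21 held 1, 6 and 3, Mir143/Mir145 held 1, 2 and 1, and Dnm3os held 1, 2 and 3. A PRRX1 summit lay within 20 kb of 6 of 8 members in MEF, against 5.11% of gene windows of 40 kb. For MMTV-CAF it was 8 of 8 against 20%, and for wound-healing fibroblasts 8 of 8 against 15%. Members at 1 locus share summits, so the 6 stand for 3 places and the 8 for 4. The lists differed in length, with 3048, 8000 and 5698 summits, and each reached below the p cutoff given in the methods for sharp peaks, to a −log10 p of 3.002, 3.006 and 3.047. Of the 32 summits at the loci, 5 had a −log10 p below 5. No PRRX1 list from cells lacking Prrx1 was analysed here as a control for the antibody.

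At 3 of the 4 loci PRRX1 summits of all 3 types fell within 500 bp of each other. All 3 MEF summits had one of both other types that near, against 17.6% of the MEF list. Windows of 6 of 8 members held such a place, against 1.2% of gene windows, and these 6 stand for 3 places. The first place was 199 to 234 bp upstream of Gm16908, at 61825404 (MEF), 61825425 (MMTV-CAF) and 61825390 (wound-healing). Its −log10 p was 14.2, 29.3 and 11.2, above 81.6%, 98.1% and 88.3% of the respective lists. The H3K4me3 region of the WT list covered it in each type. The nearest WT H3K27ac summit was 524, 589 and 572 bp away, just beyond the matching distance.

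The second place was 702 to 726 bp upstream of the Dnm3os start, at 164147034 (MEF), 164147028 (MMTV-CAF) and 164147052 (wound-healing). Its −log10 p was 6.81, 26.2 and 17.8, above 31.7%, 97.6% and 96.3% of the lists. The position was thus prominent in MMTV-CAF and wound-healing fibroblasts and not in MEF. MMTV-CAF and wound-healing fibroblasts had a further summit 5 and 125 bp upstream of the start.

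The third place was about 13.8 kb downstream of Mir21, between the converging ends of Vmp1 and Tubd1, at 86383781 (MEF), 86383876 (MMTV-CAF) and 86384171 (wound-healing). Its −log10 p was 14.2, 15.5 and 10.4, the highest of PRRX1 at Mir21 in each type. At let-7b, 0 PRRX1 summits were called in MEF. The strongest one lay 8.87 kb downstream of Mirlet7b in MMTV-CAF, with a −log10 p of 16.02, and 60 bp from it, at 85546561, in wound-healing fibroblasts, with 9.11. The nearest H3K27ac summit was 3355 bp from it in WT MMTV-CAF and 11043 bp in WT wound-healing fibroblasts, and no H3K4me3 region covered it. The other 7 of MMTV-CAF lay in H3K4me3 regions upstream of the hairpins, 4 of them in the region of 24082 bp.

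The sequence under the PRRX1 summits was read for TAATTA, a palindromic site of paired-related homeodomains that reads the same on both strands. It lay within 100 bp of 1 of 3 summits at the loci in MEF, against 69.1% of all PRRX1 summits of that list. For MMTV-CAF it was 6 of 18 against 35.5%, and for wound-healing fibroblasts 3 of 11 against 41.9%. At positions 2 kb from PRRX1 summits the share was 5.84% to 6.91%. Of the shared places, that before Gm16908 held 0 copies at the summits of all 3 types, that downstream of Mir21 held 1 at the MMTV-CAF summit and 0 at the others, and that before Dnm3os held 2 at each. Its 201 bases round the wound-healing summit, NCBIM37 (mm9) chr1:164146952-164147152, plus strand, are shown with TAATTA in capitals:
Dnm3os upstream: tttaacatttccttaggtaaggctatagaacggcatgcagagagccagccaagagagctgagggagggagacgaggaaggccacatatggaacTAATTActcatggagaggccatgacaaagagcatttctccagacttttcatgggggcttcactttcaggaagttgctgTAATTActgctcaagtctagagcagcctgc
The stretch round the MMTV-CAF summit downstream of Mir21, chr11:86383776-86383976, plus strand, held 1 copy, 35 bp from the summit:
Mir21 downstream: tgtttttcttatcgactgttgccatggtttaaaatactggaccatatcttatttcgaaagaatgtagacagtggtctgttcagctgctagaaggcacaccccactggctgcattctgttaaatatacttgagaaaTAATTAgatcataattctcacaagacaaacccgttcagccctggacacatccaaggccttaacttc
The strongest PRRX1 summit at let-7b, chr15:85546571-85546671, plus strand, held 0 copies. Its capitals mark a match to the core of the CTCF motif, CCANNAGNNGGC on either strand, which was looked for after the sequence had been read:
let-7b downstream: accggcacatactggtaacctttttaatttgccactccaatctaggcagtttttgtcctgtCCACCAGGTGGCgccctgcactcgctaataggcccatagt
That core lay within 100 bp of 2.99% of PRRX1 summits of the MMTV-CAF list and 3.25% of the wound-healing list, and of the 32 at the loci in the pair at this place alone. CTCF was not measured.

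PRRX1 and H3K27ac summits were compared by position. A WT H3K27ac summit lay within 500 bp of 0 of 3 PRRX1 summits in MEF, against 20.5% of that list. For MMTV-CAF it was 7 of 18 against 45.4%, and for wound-healing fibroblasts 5 of 11 against 33.2%. Over the loci 12 of 32 PRRX1 summits had one, above the share of the list in wound-healing fibroblasts and below it in MEF and MMTV-CAF. A WT H3K4me3 region covered 2 of 3 in MEF against 7.02% of the list, 15 of 18 in MMTV-CAF against 44.7%, and 3 of 11 in wound-healing cells against 28.2%.

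Other genes of the microRNA system were counted as summits over the 3 WT lists within 20 kb of the gene start. The median over protein-coding genes was 4. In the let-7 family, 8 of 11 genes were in the annotation, with a median of 14.5. Mirlet7c-2 had 32 and Mirlet7b 30, followed by Mirlet7a-1 and Mirlet7d with 18 each, which share a cluster. The lowest were Mirlet7c-1 with 10, Mirlet7i with 7 and Mirlet7f-2 with 0. In deleted wound-healing fibroblasts 7 of the 8 had the 4 summits in either list that a call needs. Of these 2 were lower, the members Mirlet7b and Mirlet7c-2, and 3 were higher, beside the 18% lower and 30.3% higher among gene windows with as many summits. Among 30 of 33 other microRNA loci the median was 10. Mir10a in the HoxB cluster had 44, Mir29b-1 34 and Mir29a 33, and the lowest were Mir29b-2 and Mir29c with 3 and Mir335 with 0. In wound-healing SG 21 of the 30 could be called, of which 7 were lower and 9 higher, against the same shares. In MEF KI 20 could be called, of which 13 were lower and 1 higher, against 46.3% and 12% of such windows. Clustered genes share a window, so the 7 and 9 stand for 5 and 4 places and the 13 for 8. Of the loci of other tissues, Mir124a-1 of brain had 2, and Mir133a-1 of muscle and Mir122a of liver had 0.

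The genes that make and control microRNAs had a median of 5 summits over 15 genes, beside the 4 of protein-coding genes. Eif2c2, which encodes an Argonaute, and Zcchc6, a uridylyl transferase acting on let-7 precursors, had 11 each, and Tarbp2 and Eif2c3 had 10. Drosha and Dicer1, the nucleases of the pathway, had 5 each. Eif2c4 and Lin28b had 0, the latter coding for a protein that blocks let-7 processing. Eif2c1, Dis3l2 and Lin28a had 3 summits each, and Lin28a had no H3K4me3 within 2 kb of its start in any WT list. In wound-healing SG 3 of the 15 could be called. Of these 0 were lower and 3 higher, beside 18% and 30.3% of the gene windows that could be called. Among 12 let-7 targets the median was 8.5. The highest were Hmga2, an architectural chromatin protein, with 21, Ccnd1 with 18, and Igf2bp2 and Arid3a with 16 each, and the lowest were Cdk6 with 4, Nras with 3 and Trim71 with 1. In wound-healing SG 7 of the 12 could be called, of which 1 was lower and 4 higher, beside the same 18% and 30.3%. PRRX1 summits lay within 20 kb of 5 of 8 let-7 family genes in MMTV-CAF, 15 of 30 other loci, 3 of 15 genes of the pathway and 4 of 12 targets, beside the 20% of all gene windows given above. In wound-healing fibroblasts they lay near 3, 10, 0 and 2 of these, beside 15%, and in MEF near 0, 1, 2 and 0, beside 5.11%. Clustered microRNA genes share summits, so in MMTV-CAF and wound-healing fibroblasts their counts stand for fewer places.

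The protein-coding genes whose summit counts were most like those of Mirlet7b across the 7 lists, by mean absolute difference of log2(count + 1), were Gm17379 (0.33), Thbs2 (0.59), Tmem45a (0.62), Pdgfra (0.62) and Lrrc32 (0.63). Their likeness is a description over 7 lists. Thbs2 encodes a matricellular thrombospondin and had 5, 0 and 0 summits in WT, KI and SG MEF. In MMTV-CAF it had 7 with and 8 without Prrx1, against 8 and 5 for wound-healing cells. Pdgfra encodes a PDGF receptor of mesenchyme and had 2, 1 and 3 in those MEF lists, 9 and 12 for MMTV-CAF, and 4 for each wound-healing list.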

How the data were processed

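Values were used as deposited: for H3K27ac and PRRX1, single-base summits scored by −log10 p-value; for H3K4me3, broad regions with a score, a fold ratio over input, −log10 p and −log10 q. Per the study's methods, the authors had cleaned reads by Trimmomatic, mapped to mm9 by Bowtie, discarded duplicates and run MACS2 with matching inputs. The PRRX1 lists hold summits weaker than the p cutoff stated there, a −log10 p of 5; the H3K27ac lists do not. Whether the PRRX1 lists pool duplicate ChIPs is not given in the sources used here. Groups came from sample titles, with 1 library each; 7 inputs had no list here. Depth behind each list is unknown. Peak names were unique, 1 summit each.

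GENCODE vM1 gave genes (8 of 8 members matched) and NCBIM37 the sequence. Summits were matched within 500 bp, stitched at the ROSE default of about 13 kb and ranked by summed −log10 p; H3K4me3 regions over 4 kb were called wide. Background was 40 kb round the starts of 22367 protein-coding genes. Named genes were the members, the 3 highest and 3 lowest of each list, genes at 0 and the 5 genes most like Mirlet7b more than 1 Mb away; Drosha and Dicer1 were added after their values were seen. Not in the annotation by name and not used here were Mirlet7a-2, Mirlet7e, Mirlet7f-1, Mir199b, Mir100, Mir125b-1 and Mir1a-2. The members and lists were chosen with earlier results of these data known. The counting code was tested on simulated data. Software was Python 3.11.15 with pysam 0.24.0, numpy 2.4.6, scipy 1.17.1 and matplotlib 3.10.9. Alternatives were other distances, flanks, −log10 p thresholds, stitching, ranking by number and lists of equal size.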

Additional observations from a re-analysis of the deposited data

Results flagged for a closer look

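Certain measures moved in opposite directions between fibroblast types after loss of Prrx1, each resting on 1 library per group, and none of these differences was tested. The number of H3K27ac summits at Mir21 was above WT in deleted MEF and MMTV-CAF and below WT in deleted wound-healing fibroblasts, the highest and lowest log2 ratios lying 3.66 apart. The widest H3K4me3 region at let-7b was above WT in wound-healing fibroblasts and below WT in MEF and MMTV-CAF, 1.05 apart. That at Mir143/Mir145 had the same directions and was 1.85 apart. That at Dnm3os was above WT in wound-healing fibroblasts, slightly above in MMTV-CAF (8183 against 8161 bp) and below in MEF, 0.86 apart. That at Mir21 was above WT in MMTV-CAF and below in wound-healing fibroblasts, 0.38 apart, while deleted MEF went both ways, at -0.24 in KI and 0.06 in SG. The wound-healing log2 ratio was -0.03 and turned to 0.63 when covered bases replaced the widest region, so its direction is not settled. The MEF KI lists, which hold the lowest widths at let-7b, Mir143/Mir145 and Mir21, also had the lowest median −log10 p of the MEF lists for both marks, and the part of this in the widths was not tested.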

How the results depend on the processing

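Of 86 alternative values for the shares, ranks and counts, 59 stayed and 27 moved. Staying meant lying within the interval of the share or within 1.5 times the rank or count. These values have no sign, so a reversal could not be seen in them. Retention moved to 67.7% in MEF KI with lists of equal size, and with summits within 1 kb to 81.2% for MMTV-CAF SG but 53.6% for wound-healing SG. PRRX1 summits at the loci in MEF became 1 with a flank of 10 kb and 8 with 50 kb, and those of −log10 p 10 or more numbered 4 in MMTV-CAF and 3 in wound-healing cells. Ranked by number of summits, the let-7b cluster was rank 27 in MEF WT, 39 in KI, 37 in SG, 11 in MMTV-CAF WT, 25 in SG, 6 in wound-healing WT and 356 in SG. With stitching within 5 kb it was rank 5 in MEF WT, 3 in MMTV-CAF WT, 1 in SG and 1864 in wound-healing SG. With lists of equal size the SG ranks were 3 (MEF), 1 (MMTV-CAF) and 48 (wound-healing). Called windows numbered 4 (MEF KI), 3 (MEF SG) and 2 (MMTV-CAF), each both for summits of −log10 p 10 or more and with lists of equal size, though not for the same windows or directions in MEF; the 9 in wound-healing fibroblasts stayed within 1.5 times. Why these values moved was not tested. Leaving out let-7b, added after seeing the data, moved 0 of 4 retention shares. Of 64 log2 ratios for single loci under alternatives, 4 moved and 4 changed sign. The H3K27ac ratio of MEF KI at Mir143/Mir145 turned from -0.46 to 1 with lists of equal size, and that of MEF SG at let-7b from -0.07 to 0.08 at −log10 p 10 or more. With covered bases the H3K4me3 ratio at Mir21 turned from -0.03 to 0.63 in wound-healing SG and from 0.06 to -0.49 in MEF SG. WT against SG over the 3 types as pairs was not tested, and 3 pairs allow an exact two-sided p of 0.25 at the lowest. Peak lists without depth limit every count here.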
